A study of Mus musculus with 18 samples.

Results

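Tead1 and Acvr1b, 2 genes of epithelial growth control, were followed across the jejunal enterocytes of 18 mice. They were taken by symbol from the 51 genes that the authors' deposited table names, and each is 1 of 6914 array features. Tead1 is feature 28796 (probe A_55_P2159885, gene ID 21676, chromosome 7), and Acvr1b is feature 21618 (probe A_52_P373893, gene ID 11479, chromosome 15). The mice were male BALB/cOlaHsd, 8 weeks old at the start, and were gavaged for 20 days besides standard chow. Each group had 3 measured mice of 12 kept. The control group (Ctr) received water, and the ADI group received 9 pesticides together, each at the acceptable daily intake. The PC and PO groups received 30 mg of flour a day from conventionally and organically grown potatoes, and the PCS and POS groups the same from potatoes under storage conditions. All were labelled day 20 except POS mouse 3, labelled day 27. The enterocytes were scraped from the jejunum and measured whole, so fewer cells of a type and less RNA per cell cannot be told apart.

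Tead1 is a DNA-binding protein of the Hippo pathway. When the kinases of that pathway are inactive, the coactivators Yap1 and Wwtr1 enter the nucleus and bind TEAD proteins to switch on growth genes, and in the gut this arm is known for its part in regeneration after injury. Acvr1b, also called ALK4, is a type I receptor kinase of the activin pathway. Activin binds a type II receptor, which phosphorylates Acvr1b, and Acvr1b in turn phosphorylates Smad2 and Smad3, a branch best known for restraining epithelial growth.

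A RefSeq promoter was used for Acvr1b. It is shown because Tead1 is a DNA-binding protein and Smads are the DNA-binding end of the Acvr1b pathway, so that the letters of their motifs could be looked for beside one of the genes measured. The window is chr15:101173822-101174121 on the plus strand of GRCm38.p6, from 250 bases before to 50 after the start of the gene, with every CG dinucleotide in capitals:
Acvr1b: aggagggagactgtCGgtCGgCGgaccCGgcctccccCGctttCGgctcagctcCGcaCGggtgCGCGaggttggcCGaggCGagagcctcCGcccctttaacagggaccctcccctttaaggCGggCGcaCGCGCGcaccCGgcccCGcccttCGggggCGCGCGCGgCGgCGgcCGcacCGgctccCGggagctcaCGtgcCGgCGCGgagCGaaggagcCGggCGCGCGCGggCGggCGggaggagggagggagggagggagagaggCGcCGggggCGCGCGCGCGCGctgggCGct
The window held 51 CG dinucleotides against a median of 7 over 32851 promoters of the same length, and 79.7% of its bases were G or C against a median of 52.7%. The TEAD motif GGAATG, or CATTCC on the other strand, had 0 matches in it and stood in 14.7% of all promoters. A Smad motif, GTCTAGAC, which reads alike on both strands, also had 0 matches and stood in 0.213% of all promoters. Shorter or other Smad motifs were not looked for, so this does not show that the window lacks a Smad site.

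Signals were single-colour intensities on a linear scale as deposited, and the arrays differed in brightness. The array median, over the 5021 features without a blank, ran from 5 on PO array 2 to 507 on PCS array 3. Each value below was therefore also set against its array's median on the log2 scale, called the centred level. PCS array 3 had blanks in the remaining 1893 features, and neither gene was among them. Of 12 enterocyte markers the authors' table named only Apoa1, an apolipoprotein of absorptive cells. Its intensity was 13296 to 17841 in the control mice and 16 to 31826 over all mice. The 16 was on PO array 2, and the next lowest was 1777 in PC mouse 1. Relative to the array median, Apoa1 was at 1.68 on PO array 2 and from 5.30 to 6.47 on the other arrays.

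Tead1 was lowest on average in the PO mice and varied widely within most groups, and none of its differences passed the test. Its intensity was 379, 35 and 3701 in control mice 1, 2 and 3. In the ADI mice it was 25881, 1614 and 755. In the PC mice it was 2207, 2699 and 378. Control mouse 3 was above every PC mouse and control mouse 2 was below every ADI and PC mouse, so both groups overlapped the control group. In the PO mice the intensity was 54, 12 and 154. In the PCS mice it was 548, 615 and 20318. In the POS mice it was 2315, 2721 and 284. As deposited, all 3 PO mice were below every mouse of every other group except control mouse 2. The share of features with that order was not counted. Centred, PO mice 1, 2 and 3 were at -0.74, 1.26 and -1.26. PO mouse 2, on the dimmest array, was then above control mice 1 and 2, at 1.17 and -2.39. Single mice of the ADI and PCS groups were far above the others of their group in intensity.

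The control mice spread over 106-fold in Tead1, a log2 standard deviation of 3.36 that was larger than in 99.9% of features. The median feature had a control standard deviation of 0.42. Over all groups the pooled within-group standard deviation of Tead1 was 2.46 on the log2 scale, against 1.82 for the median feature. After centring it was 1.87 against 0.67.

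**Figure D1:**
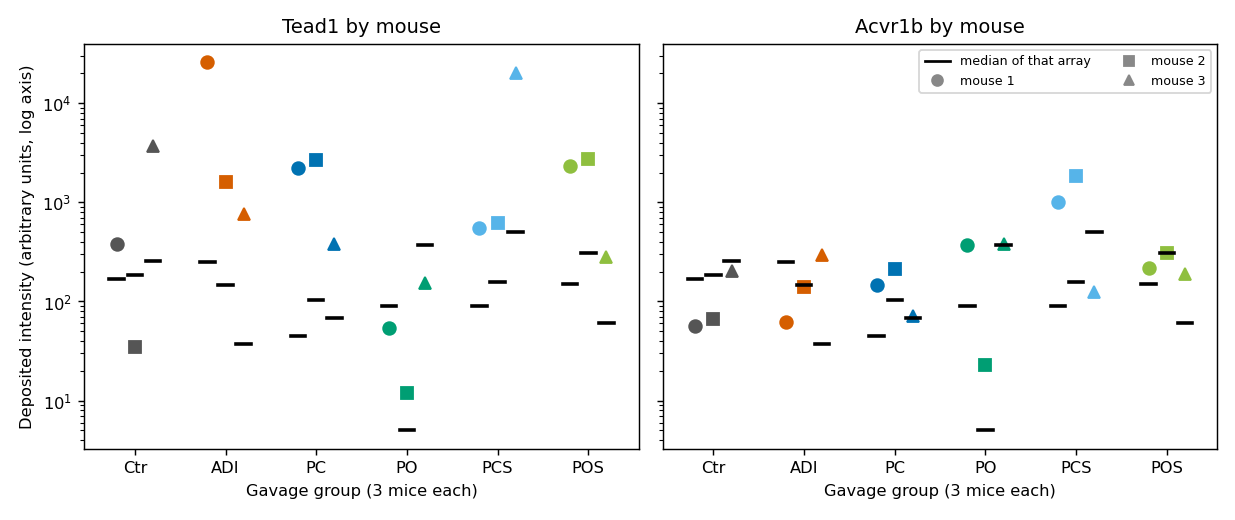
Deposited intensity (log axis) of Tead1 (left) and Acvr1b (right) in each of the 18 mice by gavage group, with a marker shape for each mouse number. A short line gives the median of each array, and the Tead1 points of the control group run from 35 to 3701.

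The log2 group means of Tead1 were, from low to high, 5.54 ± 1.85 in PO, 8.52 ± 3.36 in Ctr, 10.25 ± 1.82 in POS, 10.36 ± 1.56 in PC, 10.89 ± 2.96 in PCS and 11.63 ± 2.68 in ADI (SD, n = 3 each). Each neighbouring pair in that order overlapped and differed by less than the larger standard deviation of the pair. Centred, PC and PCS changed places, and the means were -0.25 ± 1.33 in PO, 0.88 ± 3.13 in Ctr, 3.11 ± 0.87 in POS, 3.30 ± 1.79 in PCS, 4.27 ± 1.62 in PC and 4.83 ± 1.67 in ADI (SD, n = 3).

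The pesticide mixture and the potato flours were each set against water. No comparison called Tead1 or Acvr1b, and limma called 0 of 5021 features, 0%, at an adjusted p of 0.05 in each of the 10 comparisons. At an unadjusted p under 0.05 the same fit had between 1 and 523 features as deposited, and between 15 and 1039 centred. Against the control group Tead1 was higher by 3.11 on the log2 scale in ADI mice (95% interval -0.53 to 6.75, limma adjusted p = 0.889). Centred, that difference was 3.96 (1.02 to 6.89, adjusted p = 1.00). In PC mice it was 1.84 (-1.80 to 5.48, adjusted p = 0.559) and centred 3.39 (0.45 to 6.33, adjusted p = 0.811). In PO mice it was -2.98 (-6.62 to 0.66, adjusted p = 0.344), beside a median of -1.98 over all features, and centred -1.12 (adjusted p = 0.610). Without control mouse 3 the centred PO difference was 0.36, so its direction rests on that mouse. The PCS and POS groups lay 2.37 and 1.73 above the control group, with limma adjusted p of 1.00 and 0.999. These differences rest heavily on control mouse 2: without it POS stood at 0.036, PC at 0.15 and ADI at 1.42. PCS stood at 0.66 without PCS mouse 3. Without control mouse 3 the differences were 3.40 in POS, 3.51 in PC, 4.78 in ADI and 4.04 in PCS.

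All 3 PO mice were below 0.5 times the control mean of Tead1, at 0.0394, 0.00875 and 0.112 of it, a rule met by 4.28% of features as deposited and, by all 3 PO mice again, by 5.28% centred. That control mean of 1372 was carried by control mouse 3.

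In Tead1 every ADI, PC, PCS and POS mouse was above all 3 PO mice, as deposited and centred. The lowest ADI and PCS mice were at 755 and 548, and centred at 3.46 and 1.95. The highest PO mice were at 154 and, centred, 1.26. ADI and PCS were not tested against PO, and no share of features was counted for them. All 3 PC mice were above all 3 PO mice, as were 0.737% of features, and centred they were again apart, as were 10.4%. Storage of the organic potatoes went with a like gap, since all 3 POS mice were above all 3 PO mice, as were 2.83% of features and, centred, 10.4%. POS mouse 3, the mouse labelled day 27, was the lowest of its group. PC mice were higher than PO mice by 4.82 on the log2 scale (1.18 to 8.46, unadjusted p = 0.0118, limma adjusted p = 1.00). POS mice were higher than PO mice by 4.71 (1.07 to 8.35, unadjusted p = 0.0136, limma adjusted p = 0.593), while the median feature was higher by 1.54. Centred, the limma differences were 4.51 (1.58 to 7.45, adjusted p = 0.174) and 3.35 (0.41 to 6.29, adjusted p = 0.434). These comparisons share the PO mice. A two-sided exact permutation test of 3 against 3 mice gave 0.1 for both, the smallest it allows. PCS mice differed from PC mice by 0.53 and from POS mice by 0.65, and limma gave adjusted p of 0.784 and 1.00. Over the 6 groups together limma's F for Tead1 was 3.17 (unadjusted p = 0.0264, adjusted p = 0.910), and centred 4.11 (adjusted p = 0.632).

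**Figure D2:**
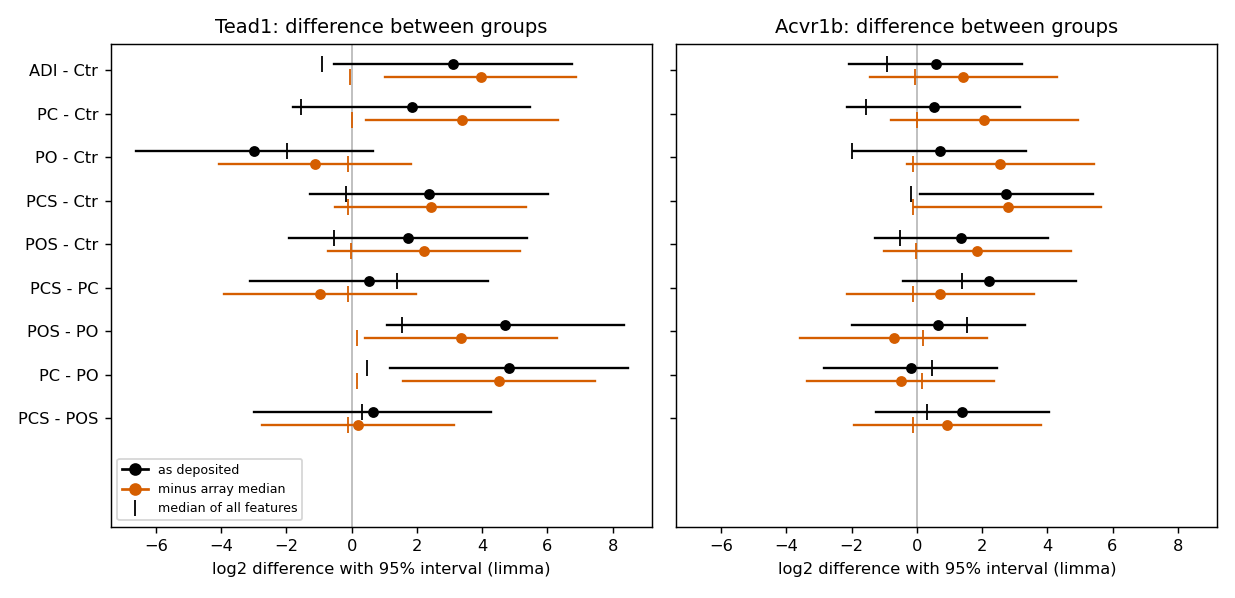
Log2 differences between groups (x axis) for 9 comparisons with their 95% limma intervals, for Tead1 (left) and Acvr1b (right). Black is as deposited and orange is minus the array median, with the median of all 5021 features as a tick; the Tead1 intervals of PC - PO and POS - PO lie above 0 on both scales.

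Acvr1b was lowest on average in the control mice and highest in the PCS mice, and none of its differences passed the test. Its intensity was 56, 67 and 204 in control mice 1, 2 and 3. In the ADI mice it was 62, 141 and 295. In the PC mice it was 148, 214 and 71. These groups overlapped each other, with the lowest control mouse below all of them. In the PO mice the intensity was 372, 23 and 383. In the PCS mice it was 1016, 1830 and 124. In the POS mice it was 217, 310 and 191. PCS mice 1 and 2 were the highest of the 18, while PCS mouse 3 was within the range of the control mice, and the lowest value of all was on the dimmest array, PO array 2.

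The log2 group means of Acvr1b were 6.52 ± 1.01 in Ctr, 7.03 ± 0.81 in PC, 7.10 ± 1.13 in ADI, 7.21 ± 2.33 in PO, 7.87 ± 0.36 in POS and 9.26 ± 2.04 in PCS (SD, n = 3). Neighbours in that order overlapped and differed by less than the larger standard deviation of the pair. The control group stayed lowest after centring, at -1.12 ± 0.69, followed by ADI at 0.31 ± 2.52, POS at 0.73 ± 0.84, PC at 0.94 ± 0.83, PO at 1.43 ± 1.20 and PCS at 1.67 ± 3.20 (SD, n = 3). The pooled within-group standard deviation of Acvr1b, 1.45, was lower than the median feature's 1.82, but after centring it was 1.82 against 0.67.

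Against the control group Acvr1b was higher by 2.74 on the log2 scale in PCS mice (0.095 to 5.39, unadjusted p = 0.0430, limma adjusted p = 1.00), and centred by 2.79 (-0.075 to 5.66, adjusted p = 0.868). The other differences from the control group were 0.58 in ADI, 0.52 in PC, 0.70 in PO and 1.36 in POS. The median feature stood at -0.90, -1.55, -1.98 and -0.53 in the same order. For these Acvr1b differences the limma adjusted p ran from 0.656 to 0.999. ADI stood at 0.032 without ADI mouse 3, PC at 0.16 without control mouse 1, and PO at 0.016 without PO mouse 3 and 2.04 without PO mouse 2. PCS mice were above PC mice by 2.23 (-0.42 to 4.88, adjusted p = 0.567), beside 1.38 for the median feature, and above POS mice by 1.39 (-1.26 to 4.04, limma adjusted p = 1.00). POS and PO mice differed by 0.66 and PC and PO mice by -0.18, with limma adjusted p of 0.717 and 1.00. Centring turned the POS and PO difference to -0.70, made PC minus PO -0.49 and cut PCS minus PC to 0.72 and PCS minus POS to 0.94. The F over 6 groups was 1.14 (adjusted p = 0.910).

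Centring set the PC, PO and POS mice apart from the control mice in Acvr1b. Centred levels in control mice 1, 2 and 3 were -1.58, -1.46 and -0.33. Every PC, PO and POS mouse was above all 3, which held for 14.1%, 10.7% and 12.4% of features. The nearest mice were PO mouse 3 at 0.050, PC mouse 3 at 0.062 and POS mouse 2 at 0.0047. PCS and ADI overlapped the control mice, and in PCS mouse 3 was at -2.03 and mice 1 and 2 were at 3.51 and 3.52. The centred limma differences from the control group were 2.07 in PC (adjusted p = 0.811), 2.56 in PO (-0.31 to 5.42, adjusted p = 0.282) and 1.85 in POS. All mice of these groups were also above 2 times the centred control mean, as were 3.29%, 1.77% and 1.59% of features. As deposited, the PC, PO and POS mice overlapped the control mice. The array medians subtracted were 168, 184 and 256 in control mice 1, 2 and 3. They were 45, 103 and 68 in PC, 90, 5 and 370 in PO, and 149, 309 and 61 in POS. Acvr1b had an r of 0.31 with the array median, at percentile 4.96 of all features, whose median r was 0.952. How much of the centred gap comes from the subtraction was not tested.

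**Figure D3:**
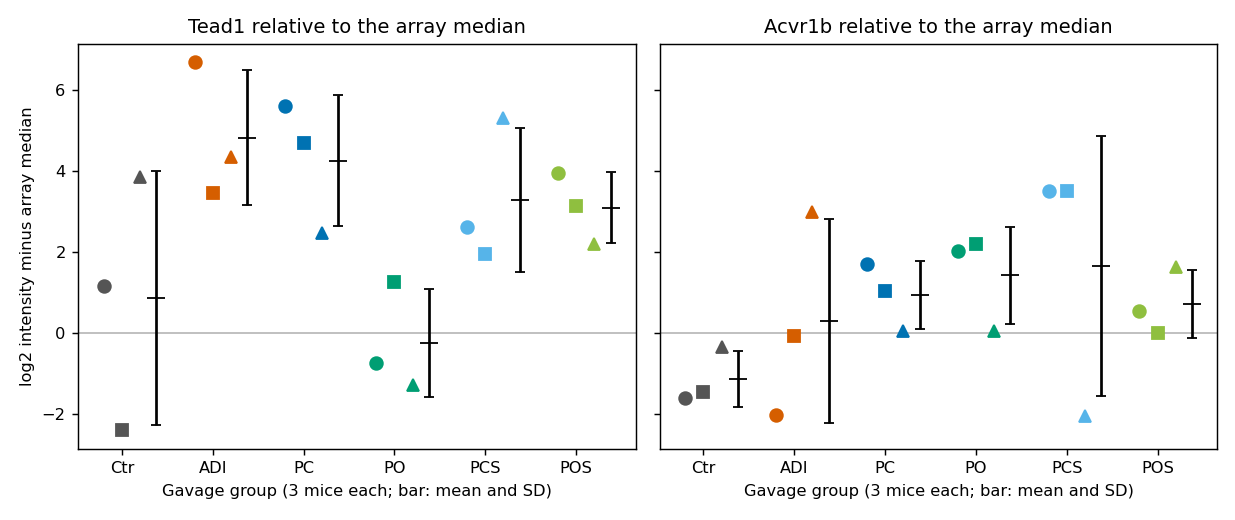
Centred log2 level (intensity minus the array median, y axis) of Tead1 (left) and Acvr1b (right) in each mouse by group, with a marker shape for each mouse number and a bar for the group mean and SD. All PC, PO and POS mice lie above the 3 control mice in Acvr1b, whose highest is at -0.33.

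No relation between the genes was detected. Over the 18 mice their log2 intensities had a Pearson r of 0.13 and a Spearman rho of 0.040 (permutation p = 0.607 and 0.875), and without PCS array 2 and PO array 2 r was -0.15. Centred, r was -0.070 and rho -0.15 (permutation p = 0.783 and 0.565). With array brightness, Tead1 had an r of 0.56 and a rho of 0.43 (permutation p = 0.0157 and 0.0778, 0.0629 and 0.311 adjusted over the 4 relations). The r was 0.35 without the 2 arrays farthest from the median brightness, PO array 2 and ADI array 3, so it rests in part on those. Acvr1b had an r of 0.31 and a rho of 0.073, with adjusted permutation p of 0.426 and 0.875. The median feature followed brightness with an r of 0.952, across features that are not independent replicates.

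The ratio of the genes' signals within an array cancels a factor that scales both signals alike, and was read between mice only. Whether array brightness acted alike on both genes was not tested, and an added background would not cancel. In log2 it was 2.76, -0.94 and 4.18 in control mice 1, 2 and 3, and -2.78, -0.94 and -1.31 in the PO mice. All 3 PO mice were below the lowest control mouse, though PO mouse 2 was almost level with control mouse 2. With intensities set to at least 16, above the Tead1 value of 12 in PO mouse 2, the groups overlapped and the exact permutation p was 0.2. Without that floor the difference of PO from the control group was -3.68 (exact two-sided permutation p = 0.1, the smallest possible, 0.5 adjusted over 5 comparisons). The ADI, PC, PCS and POS groups differed from the control group by 2.52, 1.32, -0.37 and 0.37, with exact permutation p from 0.5 to 0.9.

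Likeness in pattern was measured by Pearson r of centred levels over the 18 arrays, against the 42 other named genes with a value on every array. Nearest to Tead1 was Plcb4, a phospholipase C that acts in G protein signalling, at an r of 0.92 and a rho of 0.91. Its intensity was 630, 40 and 8485 in the control mice, with mouse 3 high and mouse 2 low as in Tead1, and 339, 29 and 510 in the PO mice. Ufm1, a ubiquitin-like modifier, followed at an r of 0.77 and Ufc1, the enzyme that conjugates it, at 0.72. Of 5020 other features, 3 had an r over 0.9 with Tead1.

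Acvr1b had a wider set of like features, with 92 of 5020, 1.83%, over 0.9. Nearest among named genes were U2af2, a splicing factor subunit, Rasgef1a, an exchange factor for Ras-family proteins, and Orc5, a subunit of the origin recognition complex, each at an r of 0.99. U2af2 read 2545, 3566 and 447 in the PCS mice and 133, 239 and 618 in the control mice, again with PCS mice 1 and 2 high. In all, 9 of the 42 named genes were over 0.9, among them Cd2, a T cell surface protein, at 0.97. The authors' table was filtered on folds against the control mean in these same mice. The share among named genes is therefore no result about Acvr1b. Cd2 was the 1 gene with a value on every array among 6 T cell markers. It ranged from 445 to 970 in control mice and from 1002 to 4937 in PCS mice, with the 1002 on PCS array 3, the brightest array. Centred, the groups overlapped. Control mice 1, 2 and 3 were then at 1.66, 1.27 and 1.92, and PCS mice 1, 2 and 3 at 4.67, 4.96 and 0.98. The part of Cd2 in the Acvr1b values was not tested.

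**Figure D4:**
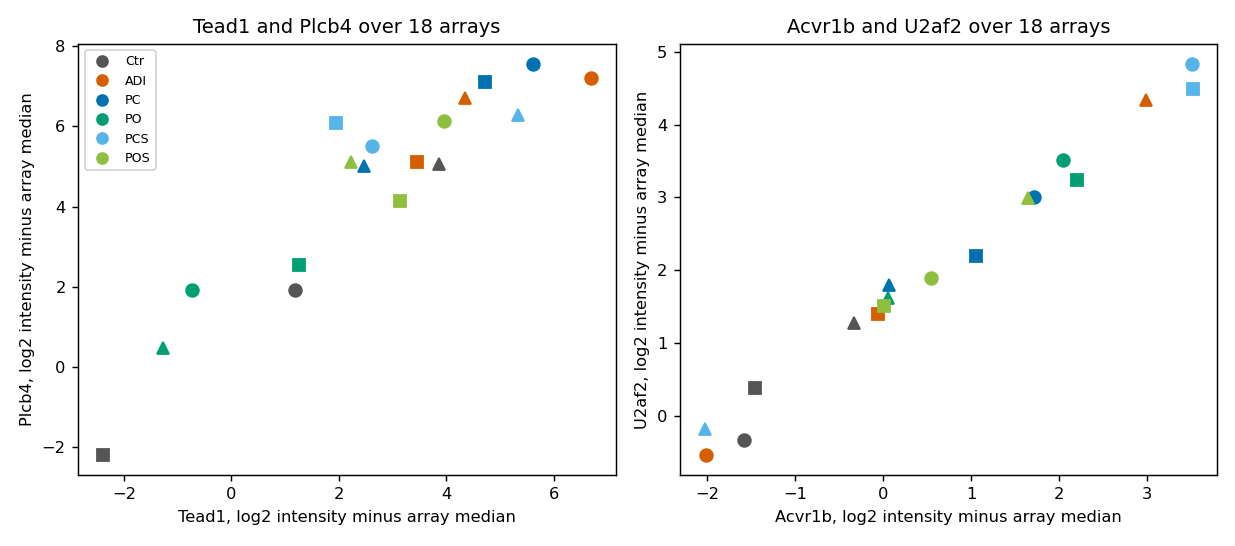
Centred log2 level of Tead1 against Plcb4 and of Acvr1b against U2af2, each point 1 of 18 mice, coloured by group and shaped by mouse number. The points follow a line, with r of 0.92 and 0.99.

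Few other genes of the pathways were named. The authors' deposited table held 1 of 26 Hippo genes, Tead1 itself, and 1 of 27 activin and Smad genes, Acvr1b itself, so neither the coactivators, kinases and targets of Hippo nor the ligands, type II receptors and Smads could be followed. Gdf1, a ligand of the TGF-beta family that can act through Acvr1b, was in the table outside those lists and was chosen after its values were seen. Its intensity was 6816 to 12506 in the control mice and 791 to 2376 in the PC mice. Bmp7, a bone morphogenetic protein that signals through other type I receptors, was chosen in the same way and ran from 7363 to 10021 in the control mice and from 1177 to 2285 in the PC mice. In both, all PC mice were below all control mice, as were 71.3% of features. Relative to the array median the control group means were 5.45 ± 0.14 for Gdf1 and 5.42 ± 0.12 for Bmp7, and the PC means 4.53 ± 0.40 and 4.75 ± 0.30 (SD, n = 3). The PC group was not alone in this. For Gdf1 the centred means were 4.85 in ADI, 3.71 ± 2.50 in PO, 4.59 in PCS and 4.91 in POS. For Bmp7 they were 4.81, 3.78 ± 2.08, 4.65 and 4.75 in the same order. No share of features is given for these centred levels.

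The authors' deposited table and the deposited intensities gave different pictures of both genes. The table gives a log2 fold per mouse against the mean of the controls, and lists 0 otherwise. In it Tead1 stood at 1.96, 1.28 and 1.40 in ADI mice 1, 2 and 3. The PC mice stood at 1.73, 2.02 and 1.84, the PCS mice at 1.22, 1.28 and 0.98, and the POS mice at 0.98, 0.62 and 0.95, while PO was listed at 0. The authors' deposited table thus has every mouse of 4 groups above the control mean. Against the control mean of the intensities, ADI mice 1 and 2, PC mice 1 and 2, PCS mouse 3 and POS mice 1 and 2 were above. ADI mouse 3, PC mouse 3, PCS mice 1 and 2 and POS mouse 3 were below. In the intensities each of those groups overlapped the control mice, but the authors' deposited table gives no single control mice to compare. The authors' mean for PC was 1.86 ± 0.15, and the intensities gave -0.066 ± 1.56 against their own control mean (SD, n = 3).

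The numbers behind the authors' deposited table were recovered as the smallest control sum that makes every fold of a gene a whole number (to 1e-06), or, where no sum did so, every fold outside the POS mice. For Tead1 that sum was 1999, against 4115 in the intensities. Of the 12 Tead1 folds that were not 0, 3 gave the deposited intensity exactly, 1614 in ADI mouse 2 and 2207 and 2699 in PC mice 1 and 2. In 7 the number differed from the intensity by 1 digit. ADI mouse 1 was 2588 in the authors' deposited table and 25881 in the intensities. In 5 of the 7 the intensity lacked the leading digit. Among them were ADI mouse 3 at 1755 against 755, PC mouse 3 at 2378 against 378 and POS mouse 3 at 1284 against 284. In POS mouse 1 the leading digit was another, with 1315 against 2315. PCS mouse 3 was 1318 in the authors' deposited table against 20318. With the recovered control sum, 4 of the 12 intensities lie on the other side of the control mean from the fold listed.

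Acvr1b was listed in the authors' deposited table for the stored potatoes only, at 2.53, 3.38 and 2.68 in PCS mice and 0.85, 0.82 and 0.73 in POS mice. No sum suited all 6 of its folds, and the sum recovered from the PCS mice was 527, against 327 in the intensities. PCS mice 1 and 2 were the same in both, at 1016 and 1830, and PCS mouse 3 was 1124 in the authors' deposited table against an intensity of 124. POS mouse 2 was the same at 310, and POS mice 1 and 3 gave no whole number over it. Over all 51 genes of the table, these included, 84 of 266 recovered cells were equal to the intensity, 111 differed by 1 digit and 71 by more. No source used here says which table holds the measured values, and the results above rest on the intensities.

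**Figure D5:**
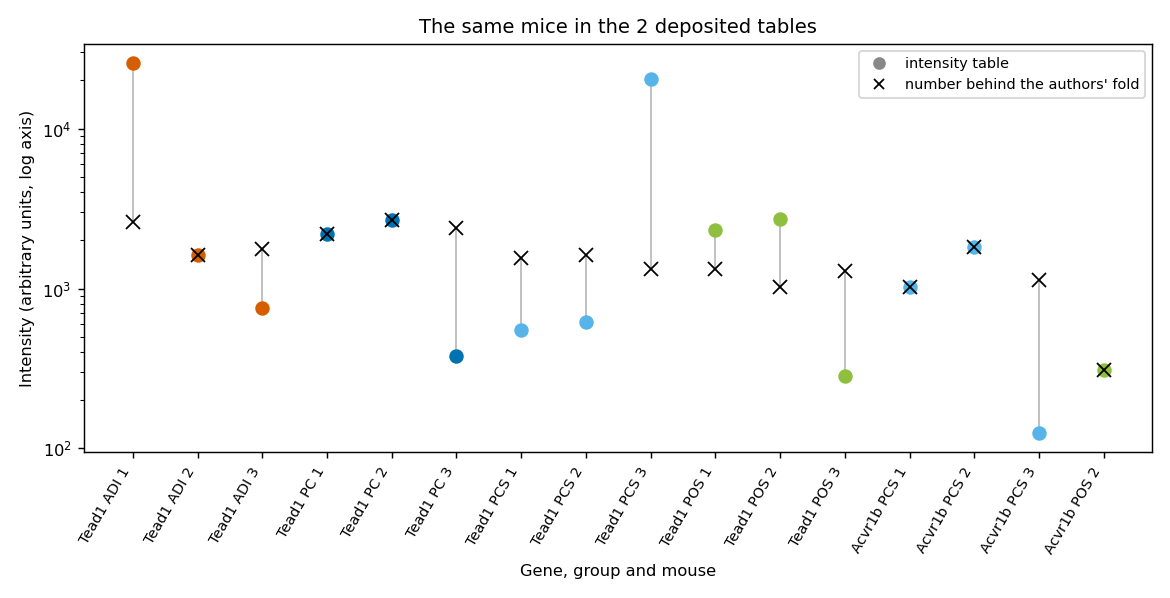
Intensity (log axis) of each mouse in the deposited intensities (circles) and the number recovered from its fold in the authors' deposited table (crosses), by gene, group and mouse (x axis) for the 16 folds that could be resolved. Circle and cross coincide where the tables are equal, as at 1614 in Tead1 and 1830 in Acvr1b, and lie apart elsewhere, as at 25881 against 2588.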

How the data were processed

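Per the submitters' processing notes, Agilent Feature Extraction read the arrays; its version and any background step are not stated. The intensity table, as the authors deposited it, is linear and in whole numbers, and its array medians differ, so no between-array scaling is evident. The second deposited table gives a log2 fold for each mouse, filtered at above 2 or below 0.5 times the control mean per the file headers, yet 93 of its 285 non-zero values lie within those limits (4 of 12 for Tead1, 3 of 6 for Acvr1b). Intensities were set to at least 1, log2 transformed and fitted over 5021 complete features and 6 groups with limma 3.58.1 in R 4.3.3 (lmFit, eBayes), with Benjamini-Hochberg adjustment over all features; the centred fit subtracts each array's median. The fit was tested on simulated data. The array number of 3 mice a group limits the precision. Tead1 and Acvr1b and the lists were chosen with earlier results of these data known. Named genes are these, the 3 most alike to each among named genes, and members of a Hippo and an activin list; Gdf1, Bmp7, Apoa1, Cd2 and genes named with them fall outside it. Of the marker lists, goblet, Paneth, crypt stem, enteroendocrine, tuft and stromal cells had 0 genes in the table, and other leukocytes 1 of 5 (Csf2). Both genes matched the GRCm38.p6 gene table by symbol; the accession in the authors' table matched there for Tead1 but not for Acvr1b, whose gene ID, chromosome and promoter rest on the symbol. Replicate numbers name individuals and were not used to pair the arrays in the main fit. Alternatives were other scalings, a floor of 16, a filter on dim features, array weights, blocks and leaving arrays out.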

Additional observations from a re-analysis of the deposited data

How the results depend on the processing

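Across the alternatives, 757 values kept their direction and side of the threshold, 1 was weaker, 29 were stronger and 49 reversed. Array weights aside, the lowest adjusted p of either gene was 0.0690. Most reversals were in 2 comparisons, with 14 each. Tead1 PCS minus PC was -0.97 with median centring, -0.94 at the 75th percentile, -0.95 with quantile normalization, -0.97 with PO array 2 dropped and centring, and -0.11 with array weights. Acvr1b POS minus PO was -0.70, -1.13, -1.18, -0.32 and -0.78 in that order, and -0.69 with PO array 2 dropped as deposited. With the replicate number as a block and median centring the values were -0.97 and -0.70, and the block changed no call. Same-numbered arrays of different groups had a median correlation of 0.065 (-0.76 to 0.61) in their deviations, with 19 of 45 pairs above 0.1. For other-numbered arrays the median was -0.030 (-0.63 to 0.80), with 29 of 90 pairs above 0.1. The ranges overlapped widely, and whether same-numbered arrays share a batch was not tested.

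Array weights, which had not converged, called 2306 features in ADI, 4330 in PC, 3291 in PCS and 3103 in POS against Ctr, 4051 in PCS minus PC and 4031 in PCS minus POS. Under them 8 of 20 comparisons of the genes passed: Tead1 ADI 2.82, POS 3.34 and, reversed, PCS minus POS -1.91; Acvr1b ADI 0.882, PCS 4.58, POS 1.50, PCS minus PC 4.28 and PCS minus POS 3.07. The F was 26.3 for Tead1 and 834 for Acvr1b, and 5005 of 5021 features passed that F test. Fitting only the groups compared called 1 feature in ADI, 3519 in PC, 1 in PCS and 11 in POS against Ctr, and 1 in PCS minus PC. Without the 2 farthest arrays, r was 0.35 for Tead1 with the array median, -0.047 for Acvr1b with it, and -0.15 between the genes.

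Leaving out 1 array at a time, the counts called ran from 0 to 1 in ADI, PC, PCS and POS against Ctr and in POS minus PO, from 0 to 3 in PC minus PO, and from 0 to 2936 in PO against Ctr, the last without PO mouse 3. As deposited, Tead1 ranged from -4.67 to -1.31 in PO minus Ctr, from -1.17 to 1.43 in PCS minus PC and from -1.06 to 1.54 in PCS minus POS. Centred, the same ran from -2.76 to 0.36, from -1.98 to -0.29 and from -0.82 to 0.87, with PO minus Ctr above 0 without control mouse 3. As deposited, Acvr1b ranged from 1.44 to 3.38 in PCS minus PC, from -0.69 to 1.34 in POS minus PO and from -1.53 to 0.50 in PC minus PO. Centred, these ran from -0.20 to 2.57, from -1.39 to -0.32 and from -1.18 to -0.047, with PCS minus PC below 0 without PCS mouse 1 or 2. The other differences from Ctr kept their direction on both scales. The ratio of the genes against Ctr ranged from -0.15 to 2.41 in PC, from -3.23 to 1.23 in PCS and from -1.10 to 1.46 in POS. The cause of these changes was not tested. Brightness on PO array 2, with a median of 5, limits what its low values show.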
